A study of Mus musculus with 36 samples.

Results

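The Dex response of mouse embryonic fibroblasts (MEFs) homozygous for the GRL allele (GRL/L) was compared with that of GRwt/wt MEFs. Dex is dexamethasone, a synthetic glucocorticoid, and GR is the glucocorticoid receptor. The comparison used the 12 libraries of sequencing run 2 that hold these genotypes, of 36 libraries in the series, and they were picked by genotype, treatment and run, with no measured value. Each group held 3 libraries: GRwt/wt with vehicle, GRwt/wt with Dex, GRL/L with vehicle and GRL/L with Dex. All cultures were FVB/NJ cells exposed for 5 h to 1 µM Dex or to solvent. Primary cultures came from embryos whose head and organs had been removed, and per the study's methods each replicate was a culture from a different mouse. The GRL allele exchanges an isoleucine for an alanine in the ligand-binding domain of the receptor. It was made by genome editing in zygotes that already carried 1 copy of another GR mutation, and was then backcrossed to FVB/NJ. The cultures are homozygous cells from heterozygous crosses, and homozygous mice die around birth. The labels and methods do not say which vehicle and Dex libraries come from 1 culture, so the libraries were not paired. The p-values measure the spread between 3 libraries per group, and genotype and culture history cannot be told apart.

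GR is a transcription factor of the nuclear receptor family that steroid hormone switches on. Active GR raises genes with glucocorticoid response elements and lowers many inflammatory genes that depend on NF-kB or AP-1. In fibroblasts it is known for raising feedback regulators, for lowering chemokines and for changing the production and breakdown of the extracellular matrix. The isoleucine exchanged in GRL lies in a region of the ligand-binding domain through which receptors pair. The study reports that the exchange also lowers ligand binding, and neither property was tested here. The question was which functions lose, keep or gain a response at a high Dex dose.

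The libraries held 21532686 to 28662608 counts each, and 15241 of 55487 genes passed the filter on low counts, with 99.93% of all counts. Values per library are given as CPM, read counts scaled to a common library size with TMM factors. Responses are log2 ratios of Dex over vehicle, and the response difference is the log2 response in GRL/L less that in GRwt/wt, tested as an interaction in edgeR's quasi-likelihood model. Standard errors (SE) were derived from the F statistic and are approximate. Fibroblast markers fitted the label, since all 15 were expressed and their summed level was between 43200 and 51100 CPM. The 20 macrophage markers were all detected too, and their summed level was higher in GRL/L, at 1220 to 1440 CPM with vehicle and 997 to 1280 CPM with Dex, against 670 to 721 and 622 to 699 CPM in GRwt/wt. Markers of epithelium and keratinocytes summed to 7.11 to 57 CPM in GRwt/wt with vehicle and to 3.15 to 11.2 CPM in the other groups, and 2 of these 13 were called in the GRwt/wt Dex response. In GRL/L, cartilage markers summed to 121 to 172 CPM and endothelial markers to 30.2 to 35.8 CPM, above the 80.5 to 98.5 and 19.2 to 26.6 CPM of GRwt/wt, and muscle markers to 22.1 to 25.3 CPM, below its 35.1 to 39.2 CPM. No marker of any of the lists had a called response difference, and the part of these cell types in the results was not tested.

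Nr3c1 (ENSMUSG00000024431, chr18:39410545-39519421, minus strand, GRCm38.p6), which encodes GR itself, was expressed in both genotypes. It measured 107, 110 and 101 CPM with vehicle and 70.5, 82.9 and 85.4 CPM with Dex in GRwt/wt. In GRL/L it measured 110, 113 and 114 CPM with vehicle and 93.8, 93.3 and 93.2 CPM with Dex. The vehicle levels of the genotypes met at 110 CPM, and every Dex library lay below every vehicle library of its genotype. The log2 response was −0.41 in GRwt/wt and −0.26 in GRL/L, and the response difference of 0.15 (SE 0.08, 95% interval −0.03 to 0.32, adjusted p = 0.535) did not pass the test. With Dex, Nr3c1 was 0.23 higher on the log2 scale in GRL/L (adjusted p = 0.014). Gene-level counts do not show the exchanged base, so they do not check the genotype.

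A call of a Dex response required an adjusted p of at most 0.05 and a log2 change of at least 1. In GRwt/wt, 386 genes rose (2.53% of those tested) and 293 fell (1.92%). In GRL/L, 233 rose (1.53%) and 144 fell (0.945%). The response difference was tested by adjusted p alone: 134 genes had a lower log2 response in GRL/L (0.879%) and 65 a higher one (0.426%), while 1731 genes had an unadjusted p under 0.05. Every one of these 199 differences had the sign opposite to the GRwt/wt response, so each ran towards a smaller or inverted response in GRL/L. Of the 679 genes called in GRwt/wt, 117 (17.2%) were weakened, meaning that their response difference passed the test and ran against the GRwt/wt response. They were 79 of the raised genes (20.5%) and 38 of the lowered genes (13%). A further 49 genes were kept: they were called in both genotypes, their difference was not called, and its 95% interval lay within 1.5-fold. These were 41 of the raised (10.6%) and 8 of the lowered genes (2.73%). The remaining 266 raised and 247 lowered genes were neither. For 240 and 237 of them the interval reached past 1.5-fold, and for 26 and 10 it lay within 1.5-fold but the GRL/L response was not called. The weakened and kept classes were defined from the same contrast, so their sizes describe the comparison and test nothing further.

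Single libraries moved the number of response differences. GRwt/wt Dex replicate 4 stood apart: it differed from replicates 5 and 6 of its group by 5.42 and 6 times the sampling noise, against 1.58 to 2.6 times for all other pairs within groups. Without it there were 282 lower and 108 higher, and 120 weakened raised genes, and all 56 differences called for the genes named below by rule held. Without GRL/L vehicle replicate 2 there were 87 lower and 34 higher, and without GRwt/wt vehicle replicate 5 there were 89 and 43. The higher count was 36 without GRL/L vehicle replicate 1, 41 without GRL/L vehicle replicate 3, 39 without GRwt/wt vehicle replicate 4, and 38, 39 and 41 without GRL/L Dex replicates 1, 2 and 3. The weakened lowered genes numbered 25, 24 and 23 without GRL/L Dex replicate 1, GRL/L vehicle replicate 1 and GRL/L vehicle replicate 2. The lower responses outnumbered the higher in all 12 such fits. In the main fit the lower ones had a positive GRwt/wt response and the higher ones a negative one. Both are smaller or inverted responses, so this order does not measure weakening.

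**Figure D1:**
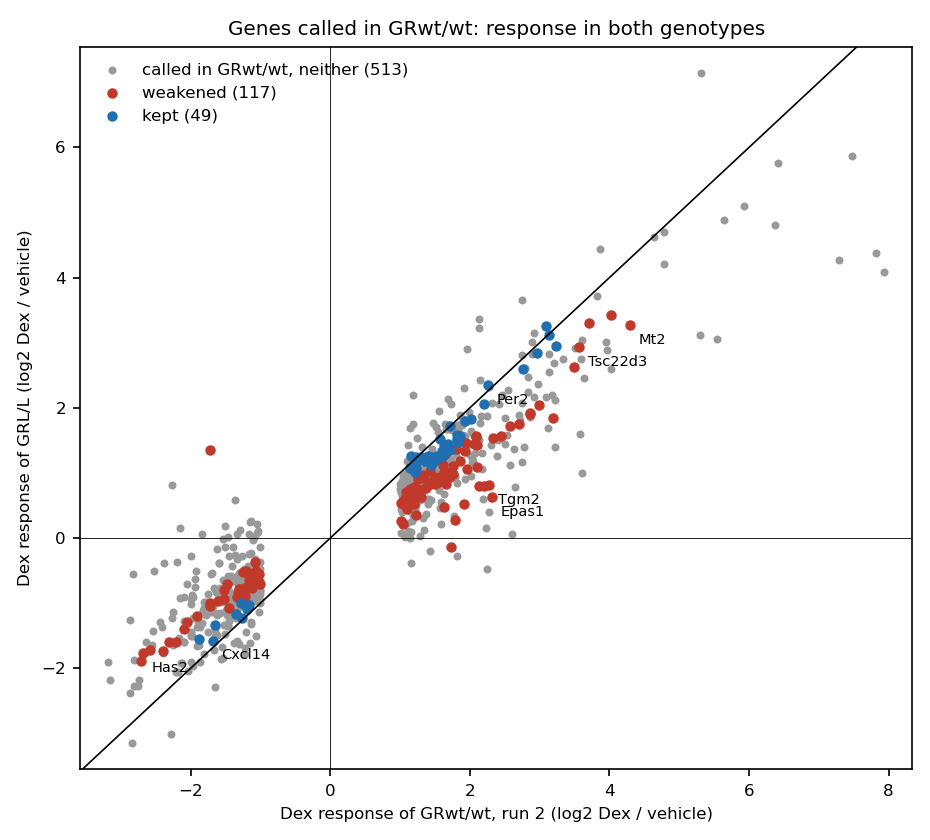
Each point is a gene called in GRwt/wt, with its log2 Dex response in GRwt/wt of run 2 on the x axis and in GRL/L on the y axis, and the line marks equal responses. The 117 weakened genes lie between the line and zero or past zero, the 49 kept genes lie near the line, and 513 genes are neither.

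Most genes called in GRwt/wt had a smaller response in GRL/L, and part of them had none there that passed the adjusted p. Among the 386 genes raised in GRwt/wt the median log2 response was 1.58 there and 1.12 in GRL/L. The change was smaller in GRL/L for 351, of opposite sign for 6, and still passed the adjusted p in the same direction for 315. Among the 293 lowered genes the medians were −1.41 and −0.885, with 273 smaller, 16 of opposite sign and 199 passing. A choice of genes by their size in GRwt/wt favours a larger change there, so these counts are descriptions. Among the weakened raised genes GRL/L retained −7.71 to 89.2% of the GRwt/wt log2 change (median 58.5%), and 74 of 79 still rose by adjusted p. Among the weakened lowered genes the share was −77.7 to 73.4% (median 61.9%), and 37 of 38 still fell.

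A list chosen without the run 2 libraries was also followed. In the 6 GRwt/wt libraries of run 1, 161 genes were called raised and 93 lowered at the same thresholds, and 155 and 88 of them were tested in run 2. Over the 155 raised genes, the median log2 change, taking vehicle and Dex libraries of the same number, was 1.41, 1.59 and 1.47 in GRwt/wt and 1.04, 0.968 and 1.03 in GRL/L (1.49 ± 0.0898 and 1.01 ± 0.0381, SD, n = 3 each). These 2 groups of 3 did not overlap. Of these genes, 135 (87.1%) changed less in GRL/L, and all 40 called differences ran towards less response. Over the 88 lowered genes the medians were −0.956, −1.03 and −1.10 in GRwt/wt and −0.866, −0.919 and −0.86 in GRL/L (−1.03 ± 0.0731 and −0.882 ± 0.0327, SD, n = 3 each). Those groups did not overlap either, though the nearest values, −0.956 and −0.919, were close. With each Dex library set against the mean of the 3 vehicle libraries instead, which needs no pairing and was chosen after seeing the data, the means were 1.46 and 1.03 (raised) and −1.05 and −0.865 (lowered) in GRwt/wt and GRL/L, again without overlap. Of the lowered genes 67 (76.1%) changed less in GRL/L, and all 10 called differences ran towards less response. The median over all genes tested was −0.00634 in GRwt/wt and −0.00318 in GRL/L.

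The GRwt/wt reference itself differed between runs, and this touches every result on single genes. In a fit of all 36 libraries (15489 genes), the GRwt/wt log2 response was higher in run 2 than in run 1 for 495 genes (3.2%) and lower for 603 (3.89%). That is more genes than differed between the genotypes within run 2. Run and culture cannot be told apart in this difference. The p-values of the genotype comparison rest on the spread within groups of run 2 and do not measure a spread between sets of cultures. For the 79 weakened raised genes the median log2 response was 1.59 in GRwt/wt of run 2, 0.953 in GRwt/wt of run 1 and 0.84 in GRL/L, and 53 of them rose more in run 2 than in run 1. For the 38 weakened lowered genes the medians were −1.31, −0.633 and −0.782, so run 1 GRwt/wt fell less than GRL/L, and 31 fell more in run 2 than in run 1. For kept genes they were 1.53, 0.987 and 1.26 (raised) and −1.31, −0.612 and −1.2 (lowered). Against GRwt/wt of run 1, which differs from GRL/L in genotype and run at once, the GRL/L response was lower for 339 genes (2.19%) and higher for 242 (1.56%). Of the 56 called differences of the genes named by rule, 7 were called with the same sign against run 1, 9 kept the sign without a call, and 40 turned in sign, 19 of them with a call. The weakened and kept genes and the named calls were chosen on run 2 values, which favours a larger GRwt/wt response there. Their run 1 medians, counts and turns of sign follow in part from that choice. The weakening reported here is therefore relative to the 6 GRwt/wt libraries of the same run.

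**Figure D2:**
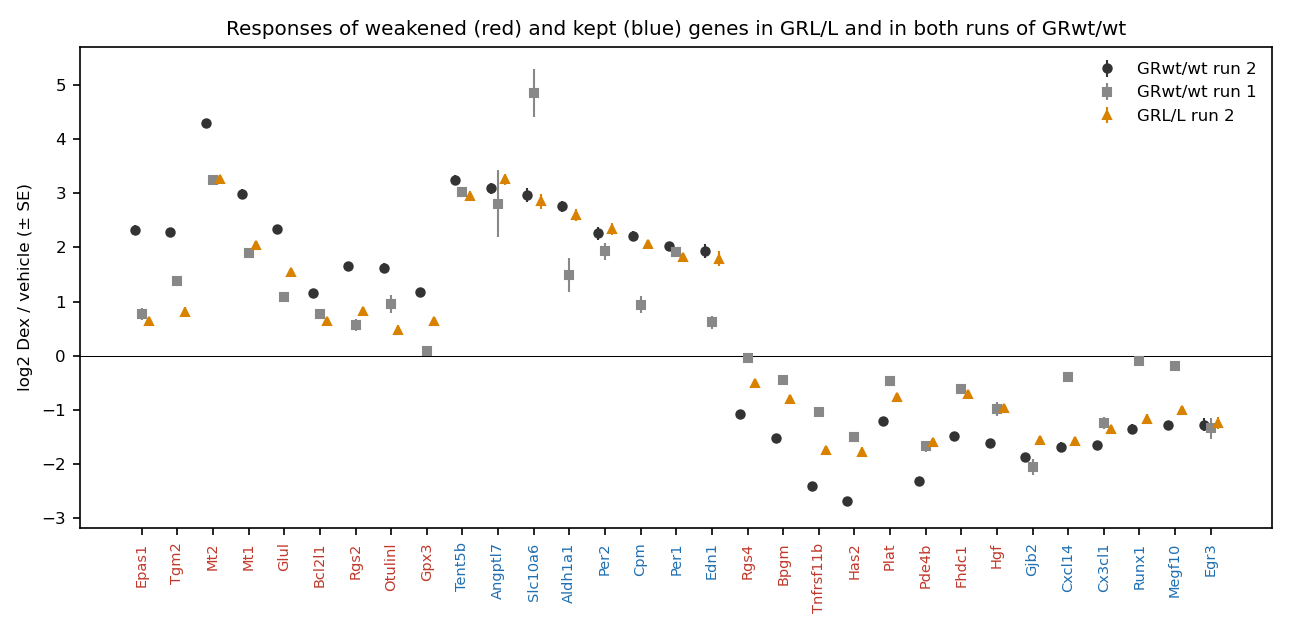
The log2 Dex response (± SE) of the weakened genes (red names) and kept genes (blue names) named by the ranking rules is shown in GRwt/wt of run 2 (circles), GRwt/wt of run 1 (squares) and GRL/L (triangles). For many weakened genes, such as Glul, Gpx3 and Rgs4, the run 1 value lies nearer zero than GRL/L, whereas for Tgm2 both GRwt/wt values lie above it.

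Epas1 and Tgm2 had the smallest adjusted p-values of the response difference among the raised genes. Epas1 (ENSMUSG00000024140, chr17:86753700-86833410, plus strand) encodes HIF-2alpha, an oxygen-regulated transcription factor. It measured 8.80, 7.51 and 9.81 CPM with vehicle and 40.8, 45.2 and 44.7 CPM with Dex in GRwt/wt, and 15.6, 13.6 and 13.5 CPM with vehicle and 22.2, 21.1 and 22.7 CPM with Dex in GRL/L. Thus GRL/L started higher and ended lower, with no overlap between any of the 4 groups. The rise was 5-fold in GRwt/wt and 1.55-fold in GRL/L, a log2 difference of −1.69 (SE 0.12, adjusted p = 1.2e-06). In GRwt/wt of run 1 the log2 response of Epas1 was 0.78, and the difference of GRL/L from it was −0.15 (adjusted p = 0.718).

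Tgm2 (ENSMUSG00000037820, chr2:158116402-158146436, minus strand) encodes transglutaminase 2, which cross-links matrix proteins. Its vehicle levels were 12.5, 11.2 and 9.49 CPM in GRwt/wt and 14.5, 13.1 and 12.8 CPM in GRL/L. With Dex it reached 49.8, 55.1 and 56.5 CPM in GRwt/wt but 23.8, 23.8 and 23.2 CPM in GRL/L. The GRL/L vehicle libraries all lay slightly above those of GRwt/wt (log2 difference 0.28, adjusted p = 0.0602), and the Dex libraries were clearly apart in the other direction. Tgm2 rose 4.86-fold in GRwt/wt and 1.75-fold in GRL/L, a log2 difference of −1.47 (SE 0.12, adjusted p = 4.05e-06). This difference was also called against GRwt/wt of run 1 (−0.58, adjusted p = 3.3e-05).

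The metallothioneins Mt1 and Mt2 bind zinc and are raised by glucocorticoids in many cells. Mt2 (ENSMUSG00000031762, chr8:94172664-94173568, plus strand) measured 67.3, 67.1 and 76.1 CPM with vehicle and 1550, 1280 and 1300 CPM with Dex in GRwt/wt. In GRL/L it measured 77.9, 71.6 and 75.6 CPM with vehicle and 711, 744 and 712 CPM with Dex. All GRL/L Dex libraries were far above vehicle and far below the GRwt/wt Dex libraries. The rise was 19.6-fold against 9.63-fold, a log2 difference of −1.02 (SE 0.10, adjusted p = 3.52e-05). Mt1 (ENSMUSG00000031765) rose from 97.6, 96.6 and 105 CPM to 927, 722 and 726 CPM in GRwt/wt and from 112, 105 and 108 CPM to 461, 438 and 439 CPM in GRL/L. Its log2 difference was −0.95 (SE 0.11, adjusted p = 0.00024). In GRwt/wt of run 1 these genes rose by 3.25 (Mt2) and 1.89 (Mt1) on the log2 scale, close to the 3.27 and 2.04 of GRL/L, and neither difference was called (adjusted p = 0.987 and 0.606).

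Glul, which encodes glutamine synthetase, reached 145, 145 and 135 CPM with Dex in GRwt/wt and 85.6, 91.7 and 97.5 CPM in GRL/L, from 26.6 to 30.1 and 29.02 to 33.2 CPM with vehicle. The Dex groups did not overlap, and the log2 response was 2.34 against 1.54 (difference −0.80, SE 0.09, adjusted p = 0.00024). Bcl2l1, which encodes the survival protein BCL-XL, went from 77.0, 77.6 and 78.0 CPM to 178, 170 and 170 CPM in GRwt/wt, and from 76.6, 76.7 and 76.7 CPM to 123, 120 and 114 CPM in GRL/L. Its vehicle levels were within 2 CPM of each other in all 6 libraries, and its log2 response was 1.15 against 0.63 (difference −0.52, SE 0.06, adjusted p = 0.00024). Other raised genes ranked highest were Rgs2, a brake on G-protein signalling (1.66 against 0.82), Otulinl (1.62 against 0.48) and Gpx3, an extracellular glutathione peroxidase (1.18 against 0.64). Against GRwt/wt of run 1, Rgs2 (0.25, adjusted p = 0.373) and Otulinl (−0.48, adjusted p = 0.22) were not called. The differences of Glul (0.45, adjusted p = 0.00851) and Gpx3 (0.54, adjusted p = 5.37e-06) were called in the opposite direction.

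A glucocorticoid response element often has the core ACANNNTGT, a palindrome that reads the same on both strands. The promoter windows (250 bases before to 50 bases after the gene start, RefSeq, GRCm38.p6) below are those of the weakened genes ranked first that hold this core and of the kept gene ranked first that holds it. They are printed to show what a match looks like, with the core in capitals. For Mt1 the window is chr8:94178839-94179138 on the plus strand and the core starts at −92 from the gene start. For Glul it is chr1:153899679-153899978 on the plus strand, with the core at −25. The Bcl2l1 window, chr2:152828440-152828739 on the minus strand with the core at −154, belongs to an internal start of that gene. For Slc10a6, a kept gene, it is chr5:103629354-103629653 on the minus strand, with the core at −161.
Mt1: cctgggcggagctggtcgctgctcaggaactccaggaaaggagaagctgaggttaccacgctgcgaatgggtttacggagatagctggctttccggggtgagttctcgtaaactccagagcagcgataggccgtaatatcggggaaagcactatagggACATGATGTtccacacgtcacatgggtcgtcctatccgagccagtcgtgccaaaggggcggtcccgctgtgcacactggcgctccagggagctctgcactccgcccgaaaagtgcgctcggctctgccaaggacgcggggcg
Glul: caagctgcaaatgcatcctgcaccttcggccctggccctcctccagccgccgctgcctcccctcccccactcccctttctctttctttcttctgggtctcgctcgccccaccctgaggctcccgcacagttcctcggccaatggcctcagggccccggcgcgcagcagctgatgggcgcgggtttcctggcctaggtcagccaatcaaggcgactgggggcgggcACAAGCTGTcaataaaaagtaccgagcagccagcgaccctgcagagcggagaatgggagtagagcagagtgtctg
Bcl2l1: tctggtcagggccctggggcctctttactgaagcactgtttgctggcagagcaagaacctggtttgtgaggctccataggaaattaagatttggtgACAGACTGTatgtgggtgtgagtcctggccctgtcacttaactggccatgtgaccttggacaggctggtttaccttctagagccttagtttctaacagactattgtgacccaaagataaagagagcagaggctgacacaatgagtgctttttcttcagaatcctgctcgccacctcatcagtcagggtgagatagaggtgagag
Slc10a6: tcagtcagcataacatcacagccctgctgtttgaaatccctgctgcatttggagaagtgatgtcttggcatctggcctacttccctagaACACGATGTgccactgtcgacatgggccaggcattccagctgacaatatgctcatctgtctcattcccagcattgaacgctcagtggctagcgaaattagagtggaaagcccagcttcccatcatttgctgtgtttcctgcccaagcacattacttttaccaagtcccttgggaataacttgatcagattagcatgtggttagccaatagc
This core was in 4 of the 62 weakened raised genes with a promoter entry (6.45%), in 6 of 32 kept raised genes (18.8%), in 32 of 275 raised genes (11.6%) and in none of 21 weakened lowered genes, beside 584 of 11090 genes tested (5.27%) and 2249 of 32851 promoters in the table (6.85%). The hexamer AGAACA, searched on both strands, was in 8 (12.9%), 7 (21.9%), 46 (16.7%) and 4 (19%) of the same sets, and in 1625 (14.7%) and 6233 (19%) of the backgrounds. The hexamer can overlap the core by 3 bases, and a window can hold both. These are counts of letters, which do not show binding, and elements outside the window were not examined.

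**Figure D3:**
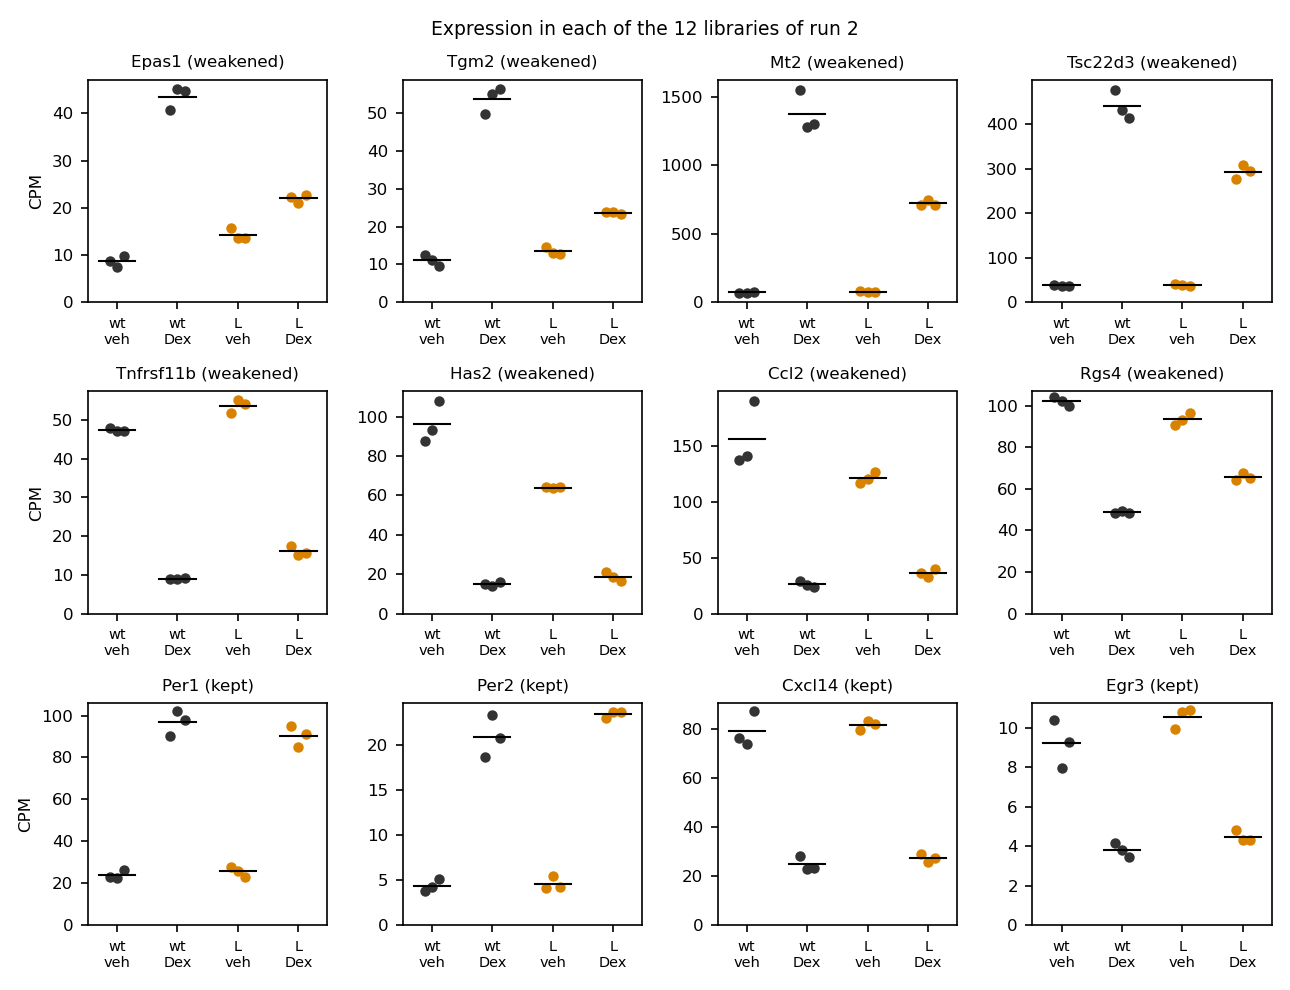
CPM in each of the 12 libraries of run 2 for weakened genes (Epas1, Tgm2, Mt2, Tsc22d3, Tnfrsf11b, Has2, Ccl2, Rgs4) and kept genes (Per1, Per2, Cxcl14, Egr3). Points are libraries, lines are means of 3, and the y axes start at 0. For the weakened genes the Dex libraries of GRL/L lie between the vehicle and GRwt/wt Dex libraries. They overlap the GRwt/wt Dex libraries for Per1, Per2 and Cxcl14. For Egr3 they lie just above them (4.32 to 4.82 against 3.43 to 4.19 CPM).

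Among genes lowered by Dex, the 8 weakened genes ranked first were Rgs4, Bpgm, Tnfrsf11b, Has2, Plat, Pde4b, Fhdc1 and Hgf. Tnfrsf11b encodes osteoprotegerin, a decoy receptor for RANKL. It fell from 48.0, 47.1 and 47.2 CPM to 8.99, 8.96 and 9.06 CPM in GRwt/wt, and from 51.7, 55.0 and 54.1 CPM to 17.5, 15.2 and 15.6 CPM in GRL/L. The GRwt/wt Dex libraries were nearly identical and each GRL/L Dex library was well above them (log2 response −2.40 against −1.73, difference 0.66, SE 0.09, adjusted p = 0.000529). Has2, the main hyaluronan synthase of fibroblasts, fell from 87.8, 93.2 and 108 CPM to 14.99, 13.9 and 15.96 CPM in GRwt/wt and from 64.0, 63.8 and 64.0 CPM to 21.1, 18.4 and 16.6 CPM in GRL/L. Here the vehicle level was also lower in GRL/L, by 0.59 on the log2 scale (adjusted p = 6e-05), and the response difference was 0.91 (SE 0.12, adjusted p = 0.000529).

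Rgs4, another brake on G-protein signalling, fell from 104, 102 and 100 CPM to 48.3, 49.3 and 48.3 CPM in GRwt/wt and from 90.5, 93.3 and 96.4 CPM to 64.4, 67.5 and 65.2 CPM in GRL/L. The groups were tight and apart, and the log2 response was −1.07 against −0.51 (difference 0.56, SE 0.06, adjusted p = 0.00024). Pde4b, a cAMP phosphodiesterase, fell by 2.31 against 1.59 on the log2 scale (difference 0.71, adjusted p = 0.00103). Plat, which encodes tissue plasminogen activator, had responses of −1.20 and −0.76 (difference 0.44, adjusted p = 0.000649). Hgf, hepatocyte growth factor, had −1.61 and −0.97, Bpgm, bisphosphoglycerate mutase, −1.53 and −0.80, and Fhdc1, a formin, −1.48 and −0.71. In GRwt/wt of run 1, Rgs4 hardly fell (−0.05), and Bpgm (−0.45), Tnfrsf11b (−1.04) and Plat (−0.46) fell less than in GRL/L, with differences that turned in sign and were called except for Plat, while Has2 (−1.51), Fhdc1 (−0.61), Pde4b (−1.67) and Hgf (−0.98) had no called difference from GRL/L.

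Functions were described with 25 gene lists, which held 765 distinct measured genes. Of these, 116 were called in GRwt/wt (15.2%, against 4.46% of all genes tested), 39 were weakened, 15 were kept and none was gained. Over all genes tested, 117 of the 679 called were weakened (17.2%) and 49 were kept. The share called in GRwt/wt was 68.8% for classical targets, 60% for cytokines and chemokines, 32.4% for matrix proteases and 28.6% for clock genes. For inflammatory enzymes it was 18.5%, for growth factors 18.4% and for immediate early genes 3.85%. The lists were drawn up with earlier results of these data known, so their counts describe the response and support nothing beyond it.

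**Figure D4:**
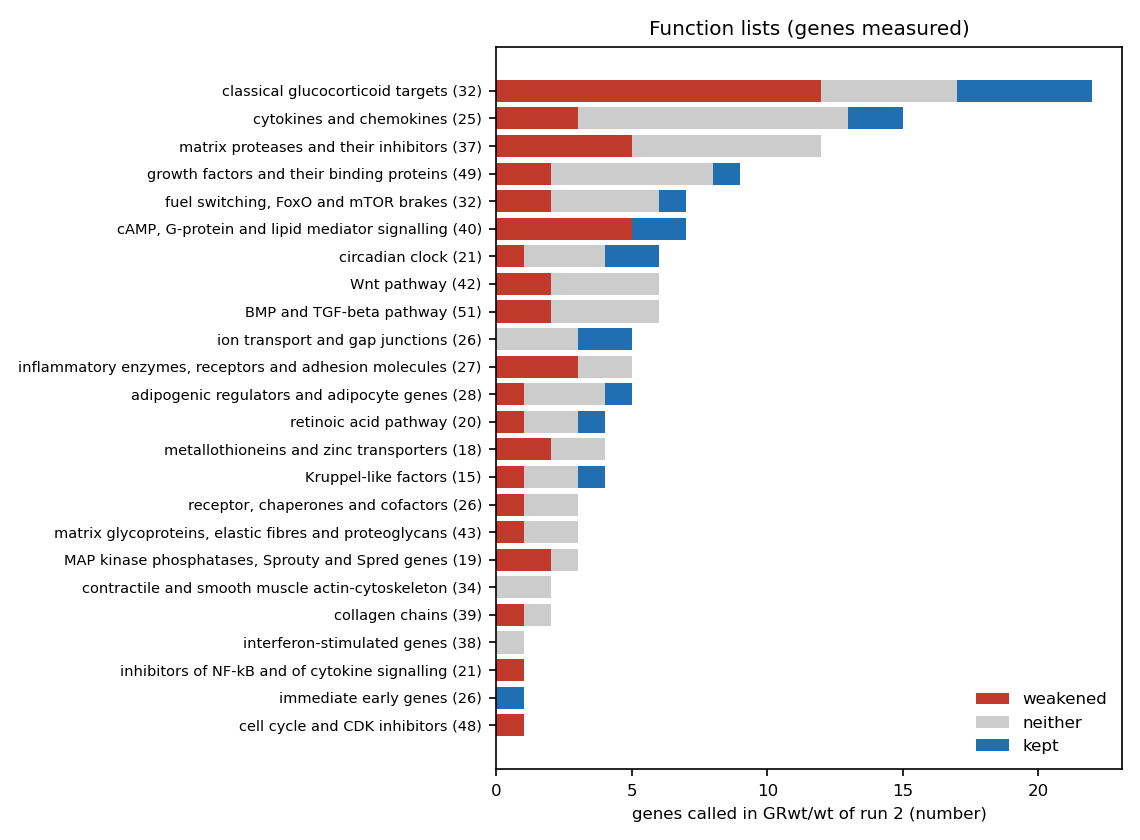
For each function list with a gene called in GRwt/wt, bars give the number of its called genes that were weakened (red), kept (blue) or neither (grey), with the number of measured genes in parentheses. Classical glucocorticoid targets have 12 weakened and 5 kept of 22 called, and cytokines and chemokines 3 weakened and 2 kept of 15.

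Of 32 classical glucocorticoid targets measured, 21 rose and 1 fell in GRwt/wt and 18 rose and 1 fell in GRL/L, 12 were weakened and 5 kept. The median over the 32 was 1.65 in GRwt/wt and 1.18 in GRL/L. Tsc22d3, which encodes the NF-kB inhibitor GILZ, measured 39.0, 35.5 and 37.0 CPM with vehicle and 477, 431 and 414 CPM with Dex in GRwt/wt, and 39.9, 38.0 and 36.9 CPM and 276, 307 and 295 CPM in GRL/L. Every Dex library lay above every vehicle library of its genotype. The rise was 11.9-fold against 7.65-fold, and the Dex groups did not overlap (log2 difference −0.63, SE 0.09, adjusted p = 0.000607). Fkbp5, the co-chaperone that dampens GR, rose from 53.8 to 59.5 CPM up to 727 to 733 CPM in GRwt/wt, and from 49.4 to 52.0 CPM up to 476 to 518 CPM in GRL/L (log2 difference −0.40, SE 0.07, adjusted p = 0.00436). Both retained most of their response, 82.3% and 89.2% of the GRwt/wt log2 change. In GRwt/wt of run 1 they rose by 1.84 and 2.58, less than the 2.94 and 3.30 of GRL/L, so their difference turned positive against run 1 (1.09 and 0.72, adjusted p = 1.77e-10 and 2.5e-06).

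Of the 19 MAP kinase phosphatases, Sprouty genes and related brakes, 3 rose in GRwt/wt and 2 of these were weakened. Dusp1, a phosphatase of p38 and JNK, measured 11.7, 11.7 and 12.3 CPM with vehicle and 30.8, 33.4 and 31.7 CPM with Dex in GRwt/wt, and 14.5, 14.3 and 13.0 CPM and 24.7, 25.5 and 24.5 CPM in GRL/L. It ended lower and started higher in GRL/L (log2 response 1.43 against 0.83, difference −0.59, adjusted p = 0.00169). Errfi1, an inhibitor of the EGF receptor, rose by 2.09 against 1.56 (difference −0.53, adjusted p = 0.000529). The other, Dusp14, rose by 1.09 and measured 0.60 in GRL/L (difference adjusted p = 0.17). Against run 1 the differences of Dusp1 (0.49) and Errfi1 (0.59) were positive. Of the 21 inhibitors of NF-kB and cytokine signalling, only Tsc22d3 was called in either genotype. That share of 4.76% in GRwt/wt was near the 4.46% of all genes.

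Of 25 cytokines and chemokines measured, 15 fell in GRwt/wt, 10 fell in GRL/L and none rose. The medians over the 25 were −1.31 and −0.966, with 3 genes weakened and 2 kept. Ccl2, the chief monocyte chemokine, fell from 137, 141 and 190 CPM to 28.8, 25.2 and 24.1 CPM in GRwt/wt and from 117, 120 and 126 CPM to 36.5, 32.8 and 40.2 CPM in GRL/L. Its Dex groups did not overlap, and GRL/L also had the lower vehicle levels (log2 difference 0.86, SE 0.15, adjusted p = 0.00502). Its neighbour Ccl7 (−1.72 against −1.05, adjusted p = 0.021) and the neutrophil chemokine Cxcl5 (−2.71 against −1.88, adjusted p = 0.0328) followed, but missed the threshold in 6 and 5 of the 12 fits that left out a library (adjusted p up to 0.0736 and 0.11). In contrast, Cxcl14 fell to the same level in both genotypes, from 73.8 to 87.3 CPM down to 23.0 to 28.0 CPM in GRwt/wt and from 79.7 to 83.2 CPM down to 25.8 to 28.9 CPM in GRL/L (log2 difference 0.10, 95% interval −0.12 to 0.33), and Cx3cl1, fractalkine, was kept as well (difference 0.31, interval 0.10 to 0.52). The run 1 falls of Ccl2 (−1.14) and Ccl7 (−0.76) in GRwt/wt were smaller than those in GRL/L and Cxcl5 measured −0.07 there, so their differences turned in sign (−0.59, −0.29 and −1.82, adjusted p = 0.0201, 0.377 and 3.24e-07). Il6 had responses of −2.75 and −2.27 from about 5 and 3 CPM, and its difference of 0.49 did not pass the test (adjusted p = 0.572). Macrophage marker levels were higher in GRL/L, as given above, and their part in the chemokine levels was not tested.

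Among 27 inflammatory enzymes, receptors and adhesion molecules, 5 fell in GRwt/wt and 2 in GRL/L, and 3 were weakened. All 3 act in the prostaglandin pathway. Ptgs2, cyclooxygenase 2, fell from 65.1, 64.3 and 75.3 CPM to 14.8, 14.1 and 15.5 CPM in GRwt/wt and from 59.7, 65.3 and 67.6 CPM to 24.9, 17.6 and 21.0 CPM in GRL/L (log2 difference 0.61, SE 0.14, adjusted p = 0.0321). Pla2g4a, the phospholipase that frees arachidonic acid, had responses of −1.12 and −0.77 (adjusted p = 0.0285), and Ptger4, a prostaglandin E2 receptor, −1.29 and −0.78 (adjusted p = 0.016). The calls of Ptgs2 and Pla2g4a were lost in 7 and 8 of the 12 fits that left out a library (adjusted p up to 0.102 and 0.108), and that of Ptger4 without GRL/L Dex replicate 3 (adjusted p = 0.0556). All 3 fell less in GRwt/wt of run 1 (Ptgs2 −1.12, Pla2g4a −0.49, Ptger4 −0.58) than in GRL/L, and the turned differences were called for Ptgs2 and Pla2g4a (adjusted p = 0.00334 and 0.0339).

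Clock genes split. Of 21, 6 rose in GRwt/wt and 3 in GRL/L. Per1, a core clock repressor, measured 22.8, 22.6 and 26.1 CPM with vehicle and 90.03, 102 and 98.05 CPM with Dex in GRwt/wt, and 27.8, 25.9 and 23.0 CPM and 94.99, 84.9 and 91.3 CPM in GRL/L, so both groups overlapped between genotypes. Per2 rose to 18.7, 23.4 and 20.8 CPM in GRwt/wt and to 23.0, 23.7 and 23.7 CPM in GRL/L, from 3.73 to 5.17 and 4.13 to 5.43 CPM. The response differences were −0.20 (95% interval −0.42 to 0.03) for Per1 and 0.08 (−0.28 to 0.44) for Per2, and GRwt/wt of run 1 gave like responses of 1.91 and 1.93. Nfil3, an output repressor of the clock, was weakened (1.23 against 0.77, adjusted p = 0.0112), a call lost without GRL/L vehicle replicate 2 (adjusted p = 0.0529). Among the 15 Kruppel-like factors, Klf9 was kept (1.24 and 1.19, difference −0.05), Klf5 was weakened (1.54 against 0.94, difference −0.61, adjusted p = 0.00144), and Klf15 had 2.97 and 2.36 with a difference that was not called (adjusted p = 0.09). Klf5 rose by 0.37 and Nfil3 by 0.70 in GRwt/wt of run 1, so their differences turned positive (0.56, adjusted p = 4.53e-05, and 0.07, adjusted p = 0.831).

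Fuel and growth brakes gave both directions. Pdk4, which blocks pyruvate entry into mitochondria, measured 6.46, 5.96 and 6.597 CPM with vehicle and 96.3, 105 and 106 CPM with Dex in GRwt/wt, and 8.44, 8.39 and 9.11 CPM and 89.3, 94.6 and 95.9 CPM in GRL/L. All 3 GRL/L vehicle libraries were higher, and the Dex levels lay just below those of GRwt/wt. The log2 difference of −0.59 (SE 0.10, adjusted p = 0.00312) thus sat mostly in the vehicle level (0.45, adjusted p = 0.00162), since the Dex levels differed by −0.14 (adjusted p = 0.0801). Pdk4 rose by 1.84 in GRwt/wt of run 1, and the difference was 1.58 in the opposite direction. Sesn3, an mTOR brake, was lowered less in GRL/L (−1.05 against −0.61, adjusted p = 0.00747). Sesn1 was kept (1.48 and 1.17, 95% interval of the difference −0.50 to −0.11). Sgk1, a kinase that raises ion transport, was kept too (1.47 and 1.19, difference −0.28, 95% interval −0.42 to −0.14, adjusted p = 0.0525). Cdkn1c, the CDK inhibitor p57, was the only gene of the 48 cell cycle genes called in GRwt/wt (2.08%, against 4.46% of all genes). It rose from 93.3, 91.6 and 75.6 CPM to 402, 373 and 342 CPM there and from 167, 156 and 148 CPM to 265, 384 and 357 CPM in GRL/L. The Dex groups overlapped and the vehicle groups did not, so the difference of −1.005 (adjusted p = 0.00138) went with a vehicle level 0.86 higher on the log2 scale (adjusted p = 6e-05) in GRL/L. Cdkn1c rose by 0.77 and Sesn3 measured −0.58 in GRwt/wt of run 1, and neither difference from GRL/L was called (0.32 and −0.03, adjusted p = 0.307 and 0.95).

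Among 37 matrix proteases and inhibitors, 4 rose and 8 fell in GRwt/wt, against 2 and 3 in GRL/L, and 5 were weakened. Adamts1, an aggrecan-cleaving protease, rose by 1.64 against 1.29 (adjusted p = 0.0254), and Adamtsl2, which binds microfibrils, by 2.14 against 0.80 (adjusted p = 0.00314), from a GRL/L vehicle level 1.07 higher on the log2 scale. Adamtsl2 measured 0.07 (SE 0.35) in GRwt/wt of run 1, and the difference was 0.73 (adjusted p = 0.419). Adamts4, a related protease, was lowered by 1.30 against 0.78 (adjusted p = 0.0117), beside Plat given above. The fifth, Mmp13, a collagenase, had −1.08 and −0.36 (adjusted p = 0.0372) and is named after its values were seen. The call of Adamts1 was lost in 8 of the 12 fits that left out a library (adjusted p up to 0.0966), but held against GRwt/wt of run 1, where it rose by 2.18. Among 39 collagen chains 5.13% were called in GRwt/wt, near the 4.46% of all genes, and the fibrillar Col11a1 was the only one weakened. It rose from 328, 308 and 275 CPM to 692, 824 and 833 CPM in GRwt/wt and from 411, 412 and 393 CPM to 669, 706 and 694 CPM in GRL/L. Its vehicle groups were apart and its Dex groups overlapped (log2 difference −0.60, adjusted p = 0.00254), and the difference from run 1 GRwt/wt was −1.12 (adjusted p = 6.45e-11). The basement membrane chains Col4a1 (0.76 against 0.36) and Col4a2 (0.65 against 0.26) also differed (adjusted p = 0.0321 each), under the size limit, and in 10 and 9 of the 12 fits without a library they did not (adjusted p up to 0.114 and 0.116). Cemip, which breaks down hyaluronan, measured −0.58 in GRwt/wt and 0.20 in GRL/L (difference 0.78, adjusted p = 0.00679), where its GRL/L response did not pass the test (adjusted p = 0.203).

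Of 51 BMP and TGF-beta genes, 4 rose and 2 fell in GRwt/wt (11.8%, against 4.46% of all genes), and none rose and 1 fell in GRL/L. Fst, follistatin, an activin trap, rose from 35.0, 36.9 and 42.1 CPM to 129, 122 and 122 CPM in GRwt/wt and from 31.9, 29.1 and 31.9 CPM to 64.3, 54.0 and 58.9 CPM in GRL/L. Its Dex level in GRL/L was less than that of every GRwt/wt Dex library by a wide margin (log2 difference −0.78, SE 0.10, adjusted p = 0.000474). Nbl1, a BMP antagonist, rose by 1.07 against 0.62 (adjusted p = 0.00502). The ligand Tgfb3 was lowered less (−0.85 against −0.50, adjusted p = 0.00651) and the co-receptor Tgfbr3 was raised less (1.00 against 0.59, adjusted p = 0.0347), the latter call being lost in 9 of the 12 fits without a library (adjusted p up to 0.122). Of 42 Wnt pathway genes, 1 rose and 5 fell in GRwt/wt (14.3%), and 2 fell in GRL/L. The matricellular Wnt target Ccn4 was lowered less (−1.15 against −0.75, adjusted p = 0.00392), as were the Wnt potentiator Rspo2 (−0.64 in GRL/L, difference 0.36, adjusted p = 0.0163) and the ligand Wnt16 (−0.88 against −0.45, adjusted p = 0.0328), and these last calls were lost in 5 and 8 of the 12 fits (adjusted p up to 0.0677 and 0.113). The run 1 responses of GRwt/wt were 0.29 for Nbl1, −0.13 for Tgfb3 and −0.35 for Ccn4, and the turned differences of 0.33, −0.37 and −0.40 were called (adjusted p = 0.00473, 2.15e-05 and 4.31e-06). Fst rose by 0.84 in run 1, Rspo2 measured −0.18 and Wnt16 −0.07, none with a called difference, while that of Tgfbr3 was called in the same direction (−0.44, adjusted p = 0.0252).

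Of 49 growth factors and binding proteins, 5 rose and 4 fell in GRwt/wt, against 2 and 1 in GRL/L. Vegfd, a lymphatic growth factor, rose by 1.35 against 0.93 (adjusted p = 0.00517), and Igfbp2, an IGF-binding protein, by 0.97 against 0.34 (adjusted p = 0.00502) from a higher GRL/L vehicle level (0.75 on the log2 scale, adjusted p = 1.01e-05). Vegfd and Igfbp2 measured 0.43 and 0.15 in GRwt/wt of run 1, and the difference turned for both (0.49, adjusted p = 0.0149, and 0.19, adjusted p = 0.622). Ccn2, a matricellular growth factor, was kept at 1.39 and 1.25. Of 20 retinoic acid genes, the degrading enzyme Cyp26b1 was weakened (1.46 against 0.84, adjusted p = 0.00138), while the synthetic enzyme Aldh1a1 was kept (2.76 and 2.60). Of 40 genes of cAMP, G-protein and lipid mediator signalling, 5 were weakened: Pde4b, Rgs2 and Rgs4 given above, Sphk1, which makes sphingosine 1-phosphate (2.06 against 1.45, adjusted p = 0.00285), and its receptor S1pr1 (−1.34 against −0.90, adjusted p = 0.0199). Among 28 adipogenic genes Fabp4, a fatty acid carrier, was kept (1.81 and 1.59), although its level was lower in GRL/L, at 12.0 to 12.9 against 19.95 to 21.4 CPM with vehicle and 35.6 to 38.5 against 67.2 to 83.2 CPM with Dex. Dlk1, which restrains adipogenesis, measured 0.18 in GRwt/wt and −0.36 in GRL/L (difference −0.54, adjusted p = 0.0105), where only the GRL/L fall passed the adjusted p.

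Of 26 immediate early genes, 1 fell in GRwt/wt (3.85%, near the 4.46% of all genes called) and 3 fell in GRL/L. The difference was called for 1. Egr3 was kept, at −1.27 and −1.24. Egr2 (−0.97 and −1.04) and Nr4a1 (−0.77 and −1.15) passed the size limit in GRL/L alone, but their differences of −0.07 and −0.38 did not pass the test. Fos, a subunit of AP-1, measured 15.02, 15.97 and 14.7 CPM with vehicle and 25.8, 24.4 and 25.8 CPM with Dex in GRwt/wt, and 19.5, 18.4 and 16.4 CPM and 19.7, 20.5 and 19.7 CPM in GRL/L. GRwt/wt moved and GRL/L hardly did (log2 response 0.73 against 0.14, the latter with adjusted p = 0.193). Its difference was −0.59 (SE 0.10, adjusted p = 0.00327) and was called against GRwt/wt of run 1 as well (−0.61, adjusted p = 0.0202). In 3 lists with at most 2 genes called in GRwt/wt, single genes differed under the size limit: Scap of 38 sterol genes (0.45 against 0.13), Csrp2 of 34 contractile genes (0.53 against −0.05) and Irf2 of 38 interferon genes (0.78 against 0.37), the last of these lost without GRL/L vehicle replicate 2 or GRwt/wt vehicle replicate 5 (adjusted p up to 0.0596). None of the 26 ion transport and gap junction genes had a called difference. Over all genes tested only 0.879% had a lower and 0.426% a higher response, so this count says little about the list. Gjb2, connexin 26, was kept at −1.88 and −1.55 (difference 0.32, 95% interval 0.09 to 0.55).

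Among the kept raised genes with the largest responses, Tent5b, a poly(A) polymerase, measured 7.19, 6.198 and 8.18 CPM with vehicle and 68.3, 70.0 and 65.1 CPM with Dex in GRwt/wt, and 6.74, 6.33 and 5.27 CPM and 49.1, 49.1 and 43.6 CPM in GRL/L. Its GRL/L Dex level was lower, yet its log2 response of 3.24 against 2.95 gave a difference of −0.29 with a 95% interval of −0.57 to −0.01, just inside the limit. Angptl7, a secreted angiopoietin-like protein, had 3.09 and 3.25 (interval −0.17 to 0.50), Slc10a6, a steroid sulfate carrier, 2.97 and 2.85 (−0.56 to 0.33), and Edn1, endothelin 1, 1.93 and 1.79 (−0.55 to 0.27). Cpm, carboxypeptidase M, had 2.21 and 2.06 with higher levels in GRL/L under both treatments. Among kept lowered genes, the transcription factor Runx1 had −1.35 and −1.17 and the engulfment receptor Megf10 −1.28 and −1.003. Intervals of this width still allow a change of up to 1.5-fold. Kept does not mean unchanged, since for Sesn1, Sgk1 and Gjb2 the interval did not reach equal responses. Sesn1 and Sgk1 retained 79.3% and 81% of the GRwt/wt log2 change, less than the 89.2% of the weakened Fkbp5. In GRwt/wt of run 1 the responses of Cpm (0.94), Edn1 (0.62), Cxcl14 (−0.39), Runx1 (−0.09) and Megf10 (−0.20) were smaller than in GRL/L and the differences were called.

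For 5 weakened genes no GRL/L response passed the adjusted p, and they are named after their values were seen. Rapgef5, an activator of Rap GTPases, measured 1.23, 0.715 and 1.10 CPM with vehicle and 2.85, 3.92 and 3.35 CPM with Dex in GRwt/wt, and 3.46, 2.79 and 2.19 CPM and 2.16, 2.88 and 2.66 CPM in GRL/L. Its GRL/L level was already near that of Dex-treated GRwt/wt, with a log2 response of 1.73 against −0.13 (difference −1.86, SE 0.31, adjusted p = 0.00294). Wif1, a secreted Wnt inhibitor, went from 0.692, 1.23 and 1.55 CPM to 4.54, 3.92 and 3.52 CPM in GRwt/wt and from 1.29, 1.24 and 1.36 CPM to 1.63, 1.16 and 1.89 CPM in GRL/L. All GRL/L libraries stayed within or near the vehicle range of GRwt/wt (1.79 against 0.28, difference −1.51, SE 0.34, adjusted p = 0.0338). Ampd3, an AMP deaminase, had 1.23 against 0.35 (adjusted p of the difference 0.024), Scara5, a ferritin receptor, 1.01 against 0.26 (adjusted p = 0.0129), and Psd4 1.04 against 0.22 (adjusted p = 0.0203). A missed test in GRL/L does not show that no response remained.

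Few genes met the rule for gain, a call in GRL/L and a called difference in the same direction. Larger GRL/L responses whose difference was not called are left out by it. Timp4 had 1.18 in GRwt/wt and 2.2 in GRL/L (95% interval of the difference 0.38 to 1.64, adjusted p = 0.138). Kcnj15 had 1.19 and 1.76 (0.20 to 0.93, adjusted p = 0.154), and both are named after their values were seen. Of 377 genes called in GRL/L, 315 were called in the same direction in GRwt/wt. A further 61 were not called in GRwt/wt, and for 1 of them the difference passed. That gene was Dio2, which encodes the deiodinase that activates thyroid hormone. It measured 2.81, 2.54 and 1.63 CPM with vehicle and 2.29, 2.58 and 2.27 CPM with Dex in GRwt/wt, and 2.80, 2.68 and 2.40 CPM and 1.10, 1.21 and 1.12 CPM in GRL/L. The 3 GRL/L Dex libraries lay below all other 9, and the log2 response was 0.03 against −1.20 (difference −1.23, SE 0.28, adjusted p = 0.0325). The call was lost in 7 of the 12 fits that left out a library (adjusted p up to 0.0966), which were those without any GRL/L Dex replicate, GRL/L vehicle replicate 1 or 2, or GRwt/wt Dex or vehicle replicate 5. Dio2 measured −1.33 (SE 1.08) in GRwt/wt of run 1, close to GRL/L (difference 0.12, adjusted p = 0.985). The other gained gene, E230020D15Rik, had a mean of 6.08 counts and responses of −1.73 and 1.34, and is counted among the weakened lowered genes too.

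Opposite signs in the genotypes occurred for 22 of the 199 genes with a called difference, and for 5 of them both responses passed the adjusted p: Lars2, Gm15564, Mir6236, Trabd2b and E230020D15Rik, named after their values were seen. Lars2, a mitochondrial leucyl-tRNA synthetase, measured 96.2, 131 and 106 CPM with vehicle and 75.8, 79.0 and 73.0 CPM with Dex in GRwt/wt, and 89.0, 99.0 and 103 CPM and 168, 157 and 124 CPM in GRL/L. Mir6236 and Gm15564 had the same order, at 29.7 to 37.1 and 13.2 to 18.4 CPM in GRwt/wt with Dex and 58.9 to 82.5 and 27.7 to 40.7 CPM in GRL/L with Dex. The counts of Mir6236 and Gm15564 are uncertain, as short genes can share reads with other copies of their sequence. Lars2 moved together with them, and whether its counts hold shared reads was not tested. The share of mitochondrial counts was 1.78 to 2.1% over the 12 libraries. Trabd2b, a Wnt-inactivating protease, had small responses of 0.19 and −0.26 (difference −0.44, adjusted p = 0.00879).

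The smaller response lay more often in the Dex level than in the vehicle level. Genotype differences by adjusted p alone were common, with 933 genes higher (6.12%) and 570 lower (3.74%) in GRL/L with vehicle, and 1197 higher (7.85%) and 1119 lower (7.34%) with Dex. With the size limit added, 178 genes differed with vehicle and 184 with Dex. Of the 79 weakened raised genes, 68 were lower in GRL/L with Dex and 19 were higher with vehicle, 8 of them both. The median genotype difference was −0.51 with Dex and 0.13 with vehicle on the log2 scale. Of the 38 weakened lowered genes, 35 were higher in GRL/L with Dex and 10 were lower with vehicle, 7 of them both, with medians of 0.41 and −0.12. By adjusted p, Tgm2 and Mt2 differed with Dex alone, and Pdk4, Cdkn1c, Adamtsl2 and Rapgef5 with vehicle alone. A level that missed this threshold, such as that of Tgm2 with vehicle (adjusted p = 0.0602), need not be equal. For 4 raised and 4 lowered genes, Fst among them, the vehicle level had moved the other way. These shares follow in part from the choice of genes by the difference of the differences.

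**Figure D5:**
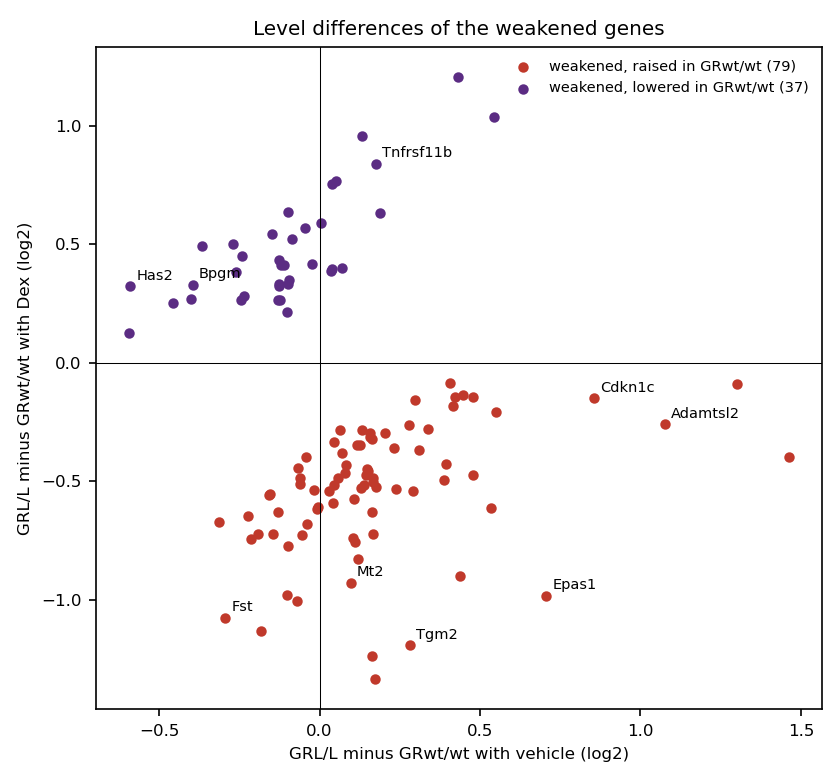
For the weakened genes, the x axis gives the log2 difference of GRL/L from GRwt/wt with vehicle and the y axis that with Dex, with genes raised in GRwt/wt in red and lowered in purple (E230020D15Rik is left out). Raised genes lie mostly below 0 with Dex and lowered genes mostly above it, while Cdkn1c and Adamtsl2 lie far to the right.

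Weakening against both runs of GRwt/wt was called for 14 genes, 13 raised and 1 lowered, which are named after their values were seen. They were Suox, Col11a1, Sdc4, Adamts1, Ror1, Dennd2a, Ampd3, Tgm2, Sik1, Medag, Clca3a1, Hand2 and Eef2k, with S1pr1 lowered. Suox, sulfite oxidase, measured 16.6, 17.3 and 16.5 CPM with vehicle and 34.8, 36.5 and 36.7 CPM with Dex in GRwt/wt, and 17.4, 19.4 and 18.8 CPM and 27.1, 23.4 and 25.0 CPM in GRL/L. Its log2 response was 1.10 in run 2, 2.00 in run 1 and 0.44 in GRL/L (adjusted p = 0.000884 and 3.44e-15). The heparan sulfate proteoglycan Sdc4 went from 96.1, 93.5 and 102 CPM to 226, 205 and 213 CPM in GRwt/wt and from 109, 109 and 108 CPM to 184, 171 and 169 CPM in GRL/L, and had 1.14, 1.66 and 0.69. For the receptor tyrosine kinase family member Ror1 the 3 responses were 1.08, 2.00 and 0.52, for the transcription factor Hand2 1.29, 1.00 and 0.64, and for the elongation factor 2 kinase Eef2k 1.14, 1.00 and 0.76. S1pr1 had −1.34, −1.32 and −0.90. Sik1, a salt-inducible kinase, had 1.95, 2.08 and 1.46, with an adjusted p of 0.0496 in run 2. GRL/L is the same in both contrasts, so they are not independent of each other.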

How the data were processed

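RNA was sequenced from primary MEFs treated for 5 h with 1 µM Dex or solvent. Per the study's methods and the labels, TruSeq libraries were run on a NextSeq instrument, reads were mapped to mm10 with HISAT2 2.1.0, and uniquely mapped reads were counted per gene with featureCounts 2.0.0; the processing notes also list FastQC and DESeq2. The annotation release and the strand setting are not given in the sources used here, so reads of overlapping or antisense genes may be mixed. The authors deposited raw counts per gene in 1 table. The run comes from the sample labels.

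The 12 libraries of run 2 were fitted with edgeR 4.0.16 (R 4.3.3, limma 3.58.1): TMM scaling, filterByExpr on the 4 groups, a quasi-likelihood F test and Benjamini-Hochberg adjustment over the 15241 genes tested. All adjusted p-values are from this test. The biological coefficient of variation was 0.0537. The interaction was (GRL/L Dex less vehicle) less (GRwt/wt Dex less vehicle). SE is the absolute log2 difference over the square root of F, and 95% intervals follow from it. List medians used log2 CPM with a prior count of 2. Run 1 contrasts came from a fit of all 36 libraries. Pairs of replicates differed by 1.58 to 2.6 times the sampling noise (5.42 and 6 with GRwt/wt Dex replicate 4), so none was a copy. Whether the replicates were cultures of separate mice was not tested. The fit was also run on simulated counts with the same dispersion for every gene and no GRwt/wt response. These settings differ from the data, so that run does not check the calls. Tables and plots used Python 3.11.15, pandas 2.3.3 and matplotlib 3.10.9, and DESeq2 1.42.0 served as an alternative.

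Genes named had a symbol and a mean of at least 50 counts over the 12 libraries. They were Nr3c1, Tsc22d3, Fkbp5 and Dusp1, the 10 raised and 8 lowered weakened genes of smallest interaction p (1 of the raised genes is not reported here), the 8 raised and 6 lowered kept genes of largest GRwt/wt response, gained genes, and up to 4 genes of each list with a called interaction. Other list members named for their values, such as Il6, Klf9, Klf15, Sgk1, Sesn1, Egr2, Nr4a1, Dusp14, Ccn2, Fabp4 and S1pr1, fall outside this rule and were picked with their values in view. The lists matched 951 entries, of which 6 through an older name and 2 not at all. The members and lists were chosen with earlier results of these data known. Alternatives were another tool, other scaling and filters, a replicate block, other references and leaving out each library. All 12 libraries expressed Y-linked genes and lacked Xist, so the genotypes did not differ in sex. The cells treated with a lower Dex dose in the study were not analysed here.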

Additional observations from a re-analysis of the deposited data

Results flagged for a closer look

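A gene was set apart here when its Dex response differed between the genotypes by the interaction test of edgeR at an adjusted p of at most 0.05. By this test 134 genes had a lower and 65 a higher log2 response in GRL/L than in GRwt/wt of run 2. In groups of 3 no formal test of single libraries was run, but GRwt/wt Dex replicate 4 stood apart by the noise ratios given above.

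For the genes named in the text the log2 response in GRL/L less that in GRwt/wt was negative for 35. Among those furthest below zero it was Epas1 −1.69, Tgm2 −1.47, Adamtsl2 −1.33, Dio2 −1.23, Otulinl −1.15, Mt2 −1.02, Cdkn1c −1.005, Mt1 −0.95, Rgs2 −0.83, Glul −0.80, Fst −0.78 and Tsc22d3 −0.63. In the middle it was Igfbp2 −0.63, Cyp26b1 −0.62, Sphk1 −0.61, Klf5 −0.61, Col11a1 −0.60, Dusp1 −0.59, Fos −0.59, Pdk4 −0.59, Csrp2 −0.58, Gpx3 −0.55, Dlk1 −0.54 and Errfi1 −0.53. Nearest to zero it was Bcl2l1 −0.52, Nfil3 −0.46, Nbl1 −0.45, Vegfd −0.42, Irf2 −0.41, Col4a1 −0.41, Tgfbr3 −0.40, Fkbp5 −0.40, Col4a2 −0.40, Adamts1 −0.35 and Scap −0.32. For Dio2 and Dlk1 the GRwt/wt response did not pass the adjusted p and the GRL/L fall did, and the others rose in GRwt/wt by adjusted p. Dio2 measured −1.33 (SE 1.08) in GRwt/wt of run 1.

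The difference was positive for 21 named genes, all of which fell in GRwt/wt. It was Has2 0.91, Ccl2 0.86, Cxcl5 0.83, Cemip 0.78, Fhdc1 0.77, Bpgm 0.72, Pde4b 0.71, Ccl7 0.67, Tnfrsf11b 0.66 and Hgf 0.64 for those furthest above zero. It was Ptgs2 0.61, Rgs4 0.56, Adamts4 0.52, Ptger4 0.51, Sesn3 0.44, Plat 0.44, Wnt16 0.43, Ccn4 0.40, Rspo2 0.36, Tgfb3 0.36 and Pla2g4a 0.35 for the rest. The part of the macrophage markers, whose summed level was higher in GRL/L, and that of the GRwt/wt cultures of run 2, which responded more than those of run 1 for 53 of the 79 weakened raised and 31 of the 38 weakened lowered genes, were not tested in these differences. Weakened genes were chosen on run 2 values, which favours a larger GRwt/wt response there.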

How the results depend on the processing

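Under DESeq2, DESeq2's size factors or at least 10 counts in every library, the counts of response differences stayed within 1.5 times, and 56 of 56 named calls held. Exceptions were the gained genes (1 with DESeq2, 1 with at least 10 counts) and, with at least 10 counts in every library, 146 genes lowered in GRwt/wt, 147 raised and 67 lowered in GRL/L and 82 differing with Dex, where fewer genes were tested (13575). Without a filter (28884 genes) there were 327 lower and 132 higher responses, 124 and 62 weakened raised and lowered, 13 kept lowered and 5 gained genes, and the 56 named calls held. A replicate block gave 37 higher responses, 25 weakened lowered and 0 gained genes, and 45 of 56 named calls held; those of Dio2, Ccl7, Ptger4, Pla2g4a, Ptgs2, Col4a1, Col4a2, Tgfbr3, Rspo2, Wnt16 and Irf2 did not (adjusted p = 0.0513 to 0.0858). Nothing in the labels or methods ties a number to a culture, and libraries of the same number correlated by −0.0724 to 0.00856 after removing group means, so the numbers were not taken as pairs. GRL/L was not compared with GRwt/wt at vehicle or Dex under the block, which could not be fitted. All 36 libraries in the fit gave 100 higher responses and 0 gained genes, with 54 of 56 named calls. A difference of at least 0.5 kept 75 lower and 31 higher, and at least 1 kept 12 and 4. By adjusted p alone 2250 genes rose and 2324 fell in GRwt/wt, and 1332 and 1393 in GRL/L. In place of the run 1 list, genes called in run 2 gave a lowered median of −1.31 in GRwt/wt, and a mean count of at least 50 gave −1.13 there and 1.06 for the raised genes in GRL/L. Leaving out 1 library gave 87 to 282 lower and 34 to 108 higher responses, 62 to 120 and 23 to 42 weakened raised and lowered, 33 to 44 and 6 to 11 kept, 0 to 2 gained, 127 to 207 differing with vehicle, 138 to 225 with Dex, and medians of 1.44 to 1.53 and −1.07 to −0.994 in GRwt/wt and 0.999 to 1.03 and −0.893 to −0.863 in GRL/L. With both runs as the reference there were 86 lower and 29 higher responses, 35 and 6 weakened and 14 kept lowered genes, 12 of 56 named calls held, and differences turned for Tsc22d3 0.10, Fkbp5 0.13, Dusp1 0.01482, Tnfrsf11b −0.15, Cxcl5 −0.17, Ptgs2 −0.04418, Errfi1 0.009828, Pdk4 0.13, Tgfb3 −0.009198 and Ccn4 −0.006972. With run 1 alone, an alternative chosen after seeing the data, there were 339 lower and 242 higher responses, 45 and 11 weakened, 24 kept raised and 65 gained genes, and 7 of 56 named calls held. The difference then turned positive for Tsc22d3 1.09, Fkbp5 0.72, Dusp1 0.49, Mt2 0.01151, Mt1 0.14, Glul 0.45, Rgs2 0.25, Gpx3 0.54, Dio2 0.12, Errfi1 0.59, Nfil3 0.06682, Pdk4 1.58, Klf5 0.56, Col4a2 0.02798, Col4a1 0.06687, Adamtsl2 0.73, Fst 0.08521, Nbl1 0.33, Igfbp2 0.19, Vegfd 0.49, Cdkn1c 0.32 and Irf2 0.05818, and negative for Rgs4 −0.46, Bpgm −0.36, Tnfrsf11b −0.70, Has2 −0.27, Plat −0.30, Fhdc1 −0.10, Ccl2 −0.59, Ccl7 −0.29, Cxcl5 −1.82, Ptger4 −0.21, Pla2g4a −0.29, Ptgs2 −0.48, Sesn3 −0.03268, Adamts4 −0.05359, Tgfb3 −0.37, Ccn4 −0.40, Rspo2 −0.47 and Wnt16 −0.38. Of the kept genes it was called for Cpm 1.11, Edn1 1.17, Cxcl14 −1.19, Runx1 −1.08 and Megf10 −0.81. The cause was not tested. Depth limits genes of few counts, such as E230020D15Rik.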
